A study of Homo sapiens with 6 samples.

Results

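SETD7, also called Set7, is a lysine methyltransferase first described for the mono-methyl mark it places on the histone H3 tail, and later found to methylate many other proteins. The 10 genes described here encode proteins that are reported to be methylated by SETD7 or to bind it. They were taken from the table of 18544 genes by symbol: DNMT1, UHRF1, SUV39H1, KAT2B, SIRT1, TAF10, RB1, FOXO3, STAT3 and PPP1R12A. All 10 were found, each as a single row, and all 10 passed the filter on low counts that left 18482 genes for testing.

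RNA was sequenced from HMEC-1, a line of human dermal microvascular endothelial cells immortalised with the large T antigen of SV40, a viral protein that binds the RB1 protein. All cultures were kept in MCDB131 medium with 5.5 mM glucose. The Set7KD group (n = 3) carried a lentiviral shRNA against SETD7 and the NTC group (n = 3) a lentiviral non-targeting shRNA, so that both groups are transduced cells of the same line. The counts give RNA levels only, with no measure of protein or methylation. Whether a methyl group on these proteins alters the level of their transcripts was not tested. The comparison of Set7KD with NTC asks whether the transcripts of the enzyme's reported substrates differ when the enzyme's own transcript is reduced.

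Methylation of a lysine by SETD7 is known to act on its substrates in different ways: it marks DNMT1 for degradation, stabilises or redirects some transcription factors, and changes which partners others bind. Several of these marks can be removed by the demethylase KDM1A. The substrates fall into groups by role. DNMT1, UHRF1 and SUV39H1 maintain silent chromatin, KAT2B and SIRT1 add and remove acetyl groups, TAF10 belongs to the general transcription machinery, RB1 controls entry into S phase, FOXO3 and STAT3 are transcription factors driven by signals, and PPP1R12A directs the phosphatase of myosin.

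The 6 libraries held 16385878 to 16953331 gene counts, so that 1 count was worth 0.0585 to 0.0618 CPM, the count scaled by TMM-adjusted library size that is the level used throughout. SETD7 stood at 178 ± 2.18 CPM in NTC and 32.8 ± 9.59 CPM in Set7KD (SD, n = 3 each), 18.4% of the NTC level. Of 10 endothelial marker genes, 8 were measured, and their summed level was 575 to 715 CPM in NTC and 534 to 567 CPM in Set7KD. Of the 8, TEK, ENG and KDR rose, CDH5 and TIE1 fell and 3 did not pass. CDH5 fell from 206 ± 32.1 to 119 ± 11.4 CPM, and ENG rose from 144 ± 9.5 to 177 ± 11.8 CPM. VWF and ESAM were low, at 9.70 ± 2.25 and 1.07 ± 0.48 CPM in NTC, and PECAM1 and CLDN5 were not analysed here. Of 12 markers of blood, epithelial, muscle, nerve and other stromal cells, 7 were measured, with summed levels of 115 to 127 CPM in NTC and 132 to 155 CPM in Set7KD. Of the 6 that were tested, TUBB3 rose from 49.7 ± 6.99 to 80.4 ± 8.37 CPM, CD14 fell from 5.51 ± 0.40 to 3.87 ± 0.47 CPM, and KRT8, MYH11, RGS5 and LUM did not pass. KRT8 was at 87.0% of its NTC level. The genes PTPRC, CD3E, KRT5, DES and DCN were not analysed here. These sums moved with the groups, and their part in the results below was not tested. In RNA from whole cultures, fewer cells of a kind and less RNA per cell cannot be told apart.

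Of the 10 substrate genes, 2 fell, 1 rose and 7 were not called in Set7KD by edgeR's quasi-likelihood test with Benjamini-Hochberg adjustment over all genes tested. KAT2B fell to 60.4% and FOXO3 to 78.4% of the NTC level, and PPP1R12A rose to 125%. With the same threshold, an adjusted p under 0.05, 36.2% of all genes tested were called, and 3 of 10 is near that share. By direction, 17.6% of all genes were called higher and 18.6% lower. With the replicate block, which called 42.8% of all genes, the calls among the 10 were the same 3. These 3 were also the substrates whose libraries were separated by group, with no shared range of CPM, as in 47.4% of all genes. The median log2 fold change of the 10 was -0.07, beside -0.01 over all genes, and their median absolute log2 fold change was 0.09, beside 0.21 over all genes. An exact two-sided permutation test on the CPM of 3 against 3 libraries cannot give less than p = 0.1, and it gave that value for KAT2B, FOXO3 and PPP1R12A. Against a minimum fold of 1.2, KAT2B kept its call, while FOXO3 and PPP1R12A lost theirs, with adjusted p of 0.239 and 0.216 by edgeR's glmTreat.

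**Figure D1:**
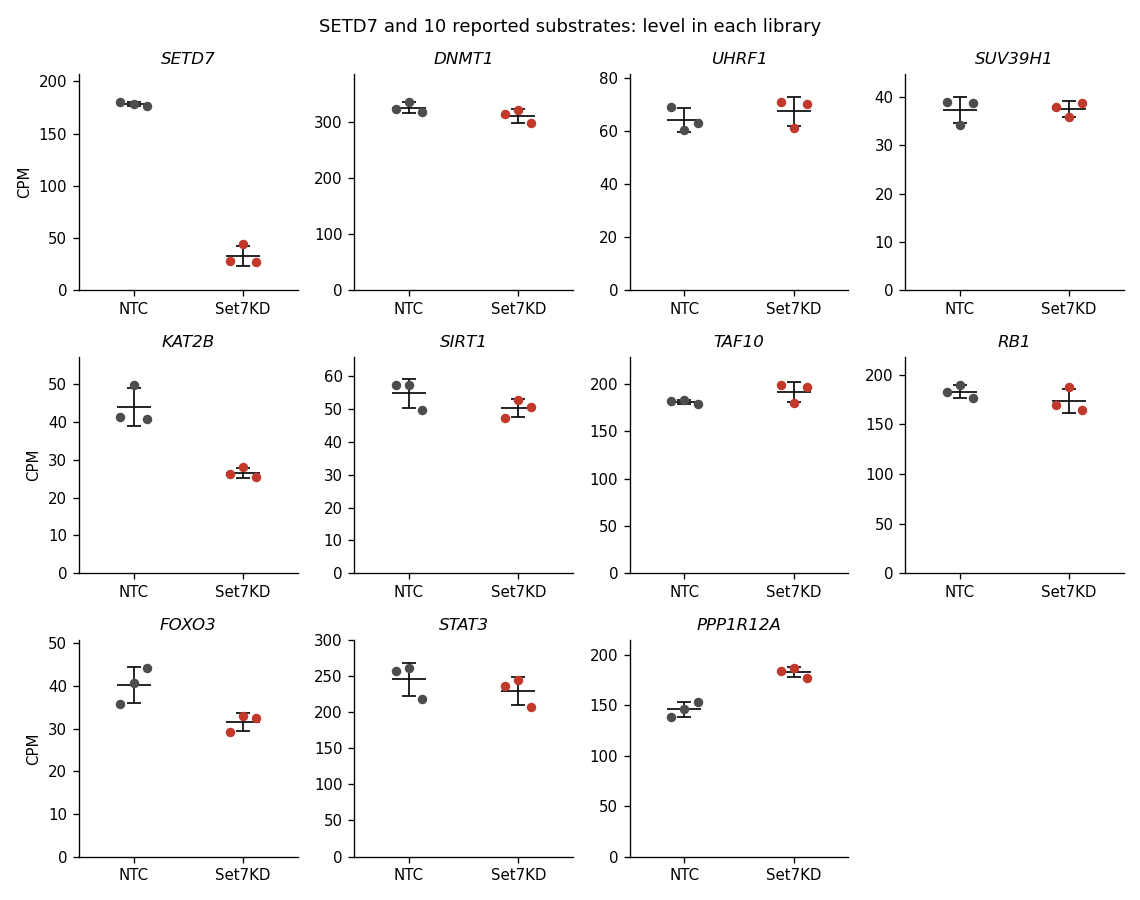
Level in CPM (vertical axes, each from 0) of SETD7 and the 10 substrate genes in the 3 NTC libraries (grey) and the 3 Set7KD libraries (red), with replicates 1 to 3 from left to right; horizontal bars are means and error bars SD. For SETD7, KAT2B and FOXO3 every Set7KD point lies below every NTC point, for PPP1R12A above, and for the other 7 substrate genes the groups overlap.

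KAT2B encodes PCAF, an acetyltransferase that modifies histones and transcription factors, and had the largest change of the 10. It stood at 41.3, 49.7 and 40.8 CPM in NTC replicates 1 to 3 and at 26.2, 27.9 and 25.5 CPM in the Set7KD replicates. The lowest NTC library lay 12.8 CPM above the highest Set7KD library, and the Set7KD values were tight around their mean. Behind these levels were 697 to 825 counts per NTC library and 416 to 452 per Set7KD library. Its log2 fold change was -0.73 (SE 0.08, 95% interval -0.91 to -0.55, edgeR adjusted p = 1.12e-05), a change larger in size than 92.2% of all genes tested. In each setting that left out a library or both libraries of a replicate number the call held, with log2 fold changes of -0.78 to -0.63.

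KAT2A, the close relative that takes the place of KAT2B in other copies of the same complexes, did not pass, at 52.2 ± 2.35 CPM in NTC and 46.9 ± 1.13 CPM in Set7KD (edgeR adjusted p = 0.0674). Among 17 genes for the other subunits of the SAGA and PCAF complexes, KAT2A included, 3 rose and 4 fell. That is 41.2% called, beside 36.2% of all genes, and the median log2 fold change was 0.02. TAF9B, a subunit in the core of these complexes, rose with a log2 fold change of 0.63, and SUPT7L and ATXN7, other structural subunits, fell at -0.36 and -0.28. The count of those that fell was 2 without Set7KD replicate 2.

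FOXO3, a forkhead transcription factor that is held in the cytoplasm by growth factor signalling and otherwise activates stress and cell cycle arrest genes, stood at 35.7, 40.8 and 44.2 CPM in NTC and at 29.2, 32.9 and 32.5 CPM in Set7KD. The groups did not overlap, but the gap between NTC replicate 1 and the highest Set7KD library was 2.85 CPM, which is less than the SD of 4.25 CPM within NTC. FOXO3 thus had a log2 fold change of -0.35 (SE 0.08, 95% interval -0.53 to -0.17) and an edgeR adjusted p of 0.0041. The call held without any single library, with adjusted p of 0.00267 to 0.0353. Reads of FOXO3B, a near-identical copy of FOXO3 elsewhere in the genome, could have been split by the counting. FOXO3B held 1.18 ± 0.26 CPM in NTC and 1.32 ± 0.37 CPM in Set7KD, but reads dropped or assigned between the copies are not measured by that row, and the values of FOXO3 are uncertain for that reason.

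Of 15 genes for the other FOXO factors and known FOXO targets, 6 fell and 2 rose, with a median log2 fold change of -0.22. The share called was 53.3%, beside 36.2% of all genes, of which 18.6% were called lower and 17.6% higher. FOXO4, a sister factor, fell from 16.8 ± 0.89 to 8.12 ± 0.34 CPM, while FOXO1, another factor with known roles in endothelial cells, did not pass, at 44.8 ± 6 and 52.6 ± 6.52 CPM. The targets KLHL24 and CCNG2 fell with log2 fold changes of -1.13 and -0.95. Those that rose were CAT, the gene for catalase, and CDKN1B, a cell cycle inhibitor, at 0.46 and 0.37. The count of those that rose was 5 with the replicate block and 5 without NTC replicate 2.

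An earlier analysis of these same counts picked the 7-base words ATGAATC and TGAATCA because 3′ UTRs that hold them went with lower fold changes, so a match in a gene that fell is a description and supports nothing. Of the 10 substrate genes, 2 held a word in their annotated 3′ UTR (GENCODE 29), KAT2B and FOXO3, near the share of all genes with an annotated 3′ UTR, 19.5%. The 3′ UTR of SETD7 held both words. A longer 3′ UTR has more places for a match: the longest annotated one was 80 bases for TAF10 and 4982 for FOXO3. The shares given here were not matched for length. The sites are shown 5′ to 3′ with the word in capitals, to place these matches in the transcripts; the position after the name counts from the first base after the stop codon.
KAT2B, position 819: cacatgagatTGAATCAacatgcttta
FOXO3, position 3264: ttaactgtgaATGAATCtgagcttggt
SETD7, position 1306: attgctctgaATGAATCctgagagttt
SETD7, position 4406: ggcctgagagTGAATCAgaggcattag
Among genes with an annotated 3′ UTR, a word stood in 725 of 2861 called lower (25.3%), 422 of 2636 called higher and 1360 of 7371 not called (18.5%). The part of these words in the fall of KAT2B and FOXO3 was not tested.

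PPP1R12A, also called MYPT1, is the targeting subunit that brings the phosphatase to myosin light chains and so lowers contractile tension. It was the substrate gene that rose. Its levels were 138, 146 and 153 CPM in NTC and 184, 186 and 177 CPM in Set7KD. Every Set7KD library lay above every NTC library, with 23.4 CPM between the groups, more than the NTC SD of 7.70 CPM. This was a log2 fold change of 0.33 (SE 0.05, 95% interval 0.21 to 0.44, edgeR adjusted p = 0.000289). PPP1R12A-AS1, on the opposite strand, shares 406 exonic bases with PPP1R12A and held 3.13 CPM in NTC and 3.39 CPM in Set7KD. The call held in each setting with libraries left out, with log2 fold changes of 0.28 to 0.40.

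The phosphatase that PPP1R12A directs is built on a catalytic subunit, and genes around it changed in both directions. Of 16 genes for catalytic subunits, relatives, inhibitors, kinases and myosin light chains, 9 rose and 2 fell. Their median log2 fold change was 0.18, and 68.8% were called, beside 36.2% of all genes. Without NTC replicate 1, 5 rose. PPP1CB, the catalytic partner of PPP1R12A in myosin phosphatase, rose slightly, from 299 ± 11.9 to 330.3 ± 15.1 CPM (edgeR adjusted p = 0.0487). PPP1CA, a catalytic subunit that mainly serves other targeting subunits, fell from 146 ± 5.58 to 44.0 ± 1.91 CPM, a log2 fold change of -1.72. MYL9, a regulatory light chain that the phosphatase acts on, rose with a log2 fold change of 1.18, and MYL6, an essential light chain, at 0.43. The light chain genes did not move together: MYL12A fell at -0.32, and MYL12B did not pass, at 0.03. Some myosin light chain genes are close copies of one another, and the counts of those are uncertain to that extent. ROCK2, a kinase that inhibits PPP1R12A, rose at 0.24.

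**Figure D2:**
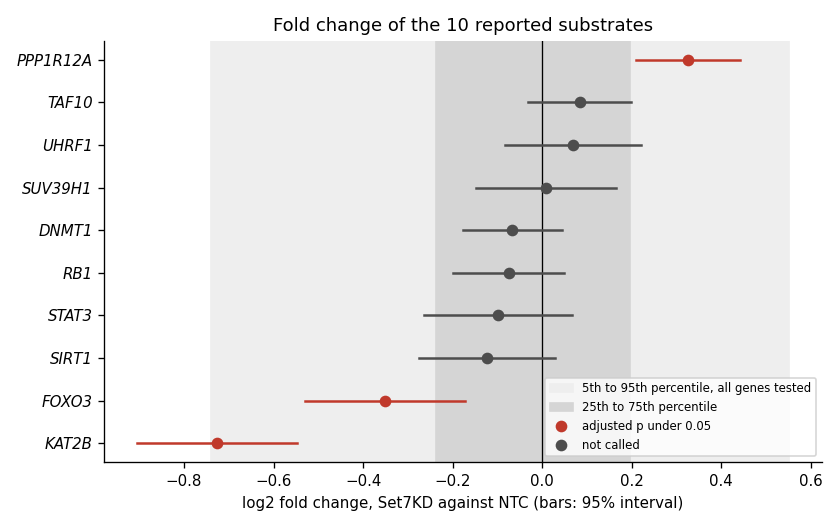
Log2 fold change (horizontal axis, Set7KD against NTC) of the 10 substrate genes with 95% intervals; red marks an edgeR adjusted p under 0.05. The dark and light bands hold the 25th to 75th (-0.24 to 0.20) and the 5th to 95th (-0.74 to 0.55) percentiles of all genes tested, and KAT2B lies near the lower edge of the light band.

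DNMT1, which copies DNA methylation onto new strands, and UHRF1, which brings it to sites that need methylation, did not pass. DNMT1 stood at 325, 337 and 318 CPM in NTC and at 315, 322 and 298 CPM in Set7KD. The groups overlapped, although the Set7KD library lay below the NTC library of the same number in all 3 cases. With 4869 to 5596 counts in each library, the log2 fold change was -0.07 (95% interval -0.18 to 0.04, edgeR adjusted p = 0.344), and folds below 0.884 lay outside the interval. UHRF1 stood at 69.0, 60.4 and 62.8 CPM in NTC and at 70.8, 60.9 and 70.0 CPM in Set7KD. NTC replicate 1 was nearly as high as the upper Set7KD libraries, and the log2 fold change was 0.07 (95% interval -0.08 to 0.22, edgeR adjusted p = 0.478).

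Both genes are known to be transcribed in step with the cell cycle through E2F factors, the partners of RB1. The promoter windows of RefSeq (GRCh38.p14, 250 bases before to 50 after an annotated start) were searched on both strands for the E2F words TTTCCCGC, TTTGGCGC and TTTCGCGC. At least 1 of them was found in 2.74% of 35116 windows. A gene can have several windows, and counted by gene, 543 of 9893 genes of the table with a window held a word. All 10 substrate genes had a window, and words were found for DNMT1 and UHRF1. RB1 had 1 window, with 38.3% G and C bases, beside 56.3 to 80.3% in the first windows of the other substrate genes. Other starts of RB1 were not searched, so the lack of a word holds for that window only. The matches are shown to place these genes beside the RB1 results below, with the word in capitals, as read along the gene's own strand.
DNMT1, window chr19:10194904-10195203, minus strand: atcggtttccGCGCGAAAagccggggcg
UHRF1, window chr19:4909251-4909550, plus strand: ccgagttttcGCGGGAAAaaaatcagag
UHRF1, window chr19:4909894-4910193, plus strand: ccgagcccgaTTTCGCGCgccctgagtt
A match describes these letters and is not a site of binding.

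Of 10 partners and relatives of DNMT1 and UHRF1, 3 rose and 0 fell by edgeR. Over all genes 36.2% were called, 17.6% higher and 18.6% lower, and 3 of 10 is near the share called. At an unadjusted p under 0.05, 4 were higher and 0 lower, and DESeq2 and limma-voom also called 0 lower. DNMT3B, a methyltransferase that sets new DNA methylation, rose from 17.4 ± 2.31 to 27.6 ± 1.38 CPM, and MBD2, which binds methylated DNA, from 71.2 ± 3.18 to 92.1 ± 2.33 CPM. The count of those that rose was 5 with the replicate block. DNMT3A, at 47.4 ± 4.17 and 44.8 ± 1.95 CPM, did not pass.

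SUV39H1 writes the trimethyl mark on the histone H3 lysine that recruits heterochromatin protein. It was the substrate gene nearest to no change, at 39.0, 34.1 and 38.7 CPM in NTC and 37.9, 35.8 and 38.8 CPM in Set7KD. The ranges lay almost on top of each other. Its log2 fold change was 0.01 (95% interval -0.15 to 0.16, edgeR adjusted p = 0.942), and its sign changed with the libraries used. An antisense gene, AC231533.1, shares 685 exonic bases with SUV39H1 in GENCODE 29; no source used here says whether the counting used strand, so reads of the 2 genes may not have been told apart. AC231533.1 had means of 8.38 CPM in NTC and 8.15 CPM in Set7KD. Of 12 genes for the other methyltransferases of that lysine, for heterochromatin proteins and for demethylases, 2 rose and 4 fell. This was 50% of the list, beside 36.2% of all genes called. CBX1, a heterochromatin protein, rose from 135 ± 8.04 to 178 ± 7.75 CPM, and the methyltransferase gene SETDB1 and the demethylase gene KDM4A fell with log2 fold changes of -0.29 and -0.25. Leaving out NTC replicate 1 or Set7KD replicate 3 left 2 that fell.

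SIRT1, an NAD-dependent deacetylase that acts on histones and FOXO factors, stood at 57.3, 57.3 and 49.7 CPM in NTC and at 47.4, 52.7 and 50.7 CPM in Set7KD. NTC replicate 3 lay below the upper Set7KD libraries, and the groups overlapped only because of it. For SIRT1 the log2 fold change was -0.12 (95% interval -0.28 to 0.03) and the edgeR adjusted p was 0.192. Without NTC replicate 3 SIRT1 was called lower, with a log2 fold change of -0.19 and an adjusted p of 0.0474, and over the other settings with 1 library left out its adjusted p was 0.11 to 0.506. Among 10 genes for the other sirtuins and for proteins that supply NAD or bind SIRT1, 10% were called, beside 36.2% of all genes. SIRT3, the mitochondrial deacetylase, fell with a log2 fold change of -0.40. None rose by edgeR (0 of 10, with 1 higher at an unadjusted p under 0.05), while DESeq2 called 1 higher, limma-voom 0 and the replicate block 2. Those 2 were RPS19BP1, a binding partner of SIRT1, and NAMPT, the rate-limiting enzyme of NAD salvage, which stood at 64.5 ± 10.6 CPM in NTC and 81.1 ± 12 CPM in Set7KD. NAMPT was also called without NTC replicate 2 (adjusted p = 0.00489) and RPS19BP1 without Set7KD replicate 2 (adjusted p = 0.0154).

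TAF10, a subunit shared by TFIID, the factor that starts transcription at core promoters, and by SAGA, stood at 182, 183 and 178 CPM in NTC and at 199, 180.0 and 197 CPM in Set7KD. Set7KD replicates 1 and 3 were above all NTC libraries and replicate 2 was among them. For TAF10 the log2 fold change was 0.08 (95% interval -0.03 to 0.20, edgeR adjusted p = 0.245). On the opposite strand, the gene ILK shares 2374 exonic bases with TAF10 in GENCODE 29, out of 6103 exonic bases of TAF10. The value of TAF10 is therefore uncertain if the counting did not use strand. Even with strand used, 2 overlaps on the same strand remain, AC091564.3 with 429 shared exonic bases and AC091564.7 with 593. AC091564.3 had means of 22.2 CPM in NTC and 24.3 CPM in Set7KD. ILK rose slightly, from 143 ± 2.15 to 162 ± 9.29 CPM, a log2 fold change of 0.18.

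The other subunits of TFIID changed in both directions around TAF10. Of 14 genes, 5 rose and 5 fell (71.4% called, beside 36.2% of all genes), and the median log2 fold change was 0.03. TAF1, the largest subunit, fell from 67.6 ± 1.40 to 41.0 ± 2.37 CPM and TAF8, which binds TAF10 directly, from 52.5 ± 0.77 to 39.7 ± 0.87 CPM. TAF13 rose from 28.1 ± 1.17 to 41.7 ± 0.83 CPM. TBP, which binds the TATA box, did not pass, at 21.6 ± 2.81 and 22.6 ± 0.25 CPM.

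RB1, the pocket protein that holds E2F factors in check until cyclin-dependent kinases release them, stood at 183, 189.7 and 177 CPM in NTC and at 169.7, 187 and 165 CPM in Set7KD. Set7KD replicate 2 lay within the NTC range and the other 2 below it, while every Set7KD library was below the NTC library of its number, by 0.11, 0.02 and 0.10 on the log2 scale. The log2 fold change was -0.08 (95% interval -0.20 to 0.05, edgeR adjusted p = 0.339). RBL2, another pocket protein, fell from 124 ± 0.86 to 74.5 ± 3.66 CPM, with a log2 fold change of -0.74. Of 24 genes for pocket proteins, E2F and DP factors and their cyclins, kinases and inhibitors, 11 rose and 4 fell. Their median log2 fold change was 0.08, and 62.5% were called, beside 36.2% of all genes. CCNE1, which encodes cyclin E for the start of DNA replication, and E2F3, an activating E2F, rose with log2 fold changes of 1.09 and 0.47. E2F1, also an activating E2F, fell at -0.30, and the cyclin gene CCND2 fell at -1.65. The inhibitor genes CDKN2C and CDKN1B rose at 0.39 and 0.37. In these cells the large T antigen is an outside input on this pathway in both groups.

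STAT3, the transcription factor that relays signals of the interleukin 6 family, stood at 257, 261 and 219 CPM in NTC and at 236, 245 and 208 CPM in Set7KD. Replicate 3 was the lowest of both groups, and within each number the Set7KD library was below the NTC library, by 0.12, 0.09 and 0.08 on the log2 scale. The log2 fold change was -0.10 (95% interval -0.26 to 0.07, edgeR adjusted p = 0.339), and with the replicate block the adjusted p was 0.0626. Of 21 genes for other STATs and for the receptors, kinases, inhibitors and targets around STAT3, 7 fell and 2 rose. Their median log2 fold change was -0.28, and 42.9% were called, beside 36.2% of all genes. STAT5B fell from 78.8 ± 4.83 to 48.4 ± 1.04 CPM, and STAT2 and the phosphatase gene PTPN11 fell with log2 fold changes of -0.83 and -0.60. With the replicate block 11 fell and 4 rose. The count of those that rose was 1 without NTC replicate 1, Set7KD replicate 1 or Set7KD replicate 2.

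**Figure D3:**
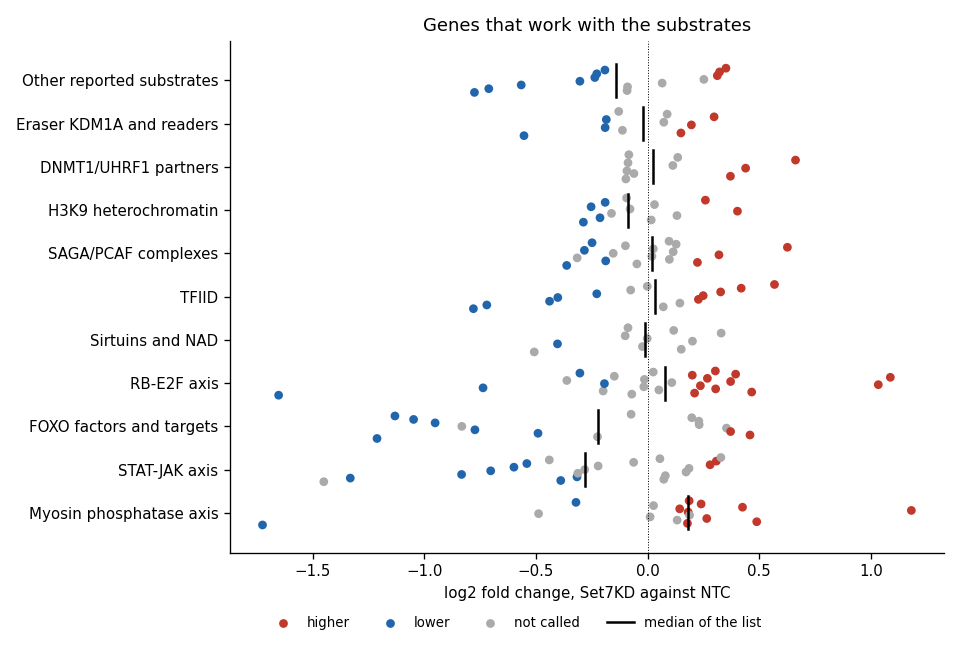
Log2 fold change (horizontal axis, Set7KD against NTC) of each tested gene in 11 lists of genes that work with the substrates or share their modification (rows); red points rose, blue points fell, grey points were not called by edgeR, and black bars are medians. Both colours appear in most rows; the median is -0.28 for the STAT-JAK axis and 0.18 for the myosin phosphatase axis.

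Per kilobase of annotated exon (GENCODE 29, all transcripts of a gene merged), the NTC levels of the 10 substrate genes spanned from 33.3 ± 0.98 CPM per kilobase for DNMT1 to 5.21 ± 0.55 for FOXO3. By this measure DNMT1 lay above the others in every NTC library. The merged length can exceed that of the transcripts in use, so the order of the genes depends on the length chosen. The merged length of TAF10 was 6103 bases, of which 2374 are shared with ILK. TAF10 at 29.7 ± 0.39, RB1 at 28.4 ± 0.99 and STAT3 at 27.9 ± 2.64 overlapped in their libraries, and UHRF1, PPP1R12A, SIRT1 and SUV39H1, at 11.1 to 12.4, each overlapped the next in that order. KAT2B, at 7.79 ± 0.89, and FOXO3 were the lowest, without overlap with each other. By this measure the 2 genes that fell were also the 2 with the lowest levels per length. In Set7KD the level of KAT2B was 4.71 ± 0.22 and that of FOXO3 4.08 ± 0.27 CPM per kilobase, still without overlap, and PPP1R12A, at 15.3 ± 0.42, lay above UHRF1, at 13.1 ± 1.08, in every library.

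**Figure D4:**
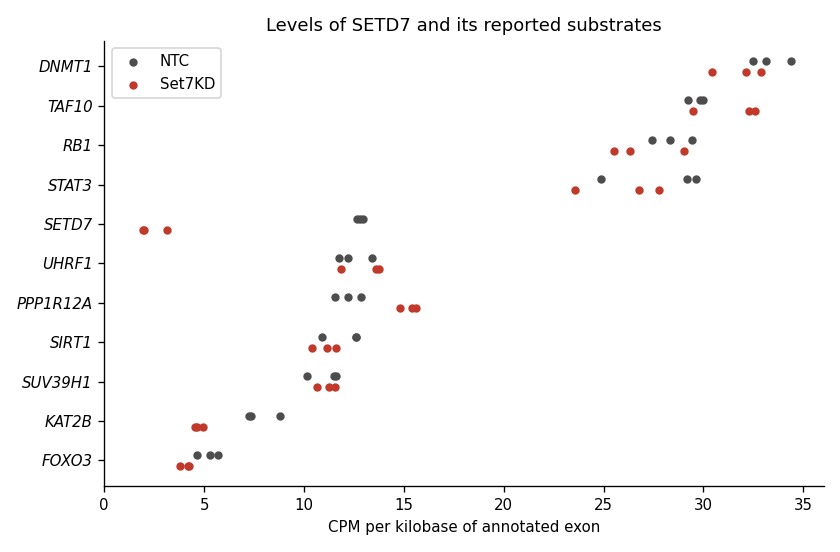
Level of SETD7 and the 10 substrate genes in CPM per kilobase of annotated exon (horizontal axis, from 0) in each NTC library (grey) and each Set7KD library (red), ordered by the NTC mean. DNMT1 is highest at 33.3 in NTC and FOXO3 lowest at 5.21, while SETD7 drops from 12.8 to 2.35.

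Genes whose log2 CPM followed a called substrate gene most closely over the 6 libraries were sought among 11150 others whose mean was 10 CPM or more. This likeness is a description: the libraries fall into 2 groups, so that a high Pearson correlation needs little more than a shared difference between them. For KAT2B the nearest were CACNG8 (r = 0.9996), BAZ2B (0.999) and ATE1 (0.9989). For FOXO3 they were HMMR (0.992), IMPAD1 (0.9886) and PHC3 (0.9868), whose levels differed less between the groups: HMMR went from 113 to 103 CPM. For PPP1R12A they were UBE4A (0.9972), EXOSC8 (0.9971) and EEA1 (0.9969), and EEA1, an endosome tether, went from 83.7 to 108 CPM.

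Outside the 10 genes, other proteins are reported as substrates of SETD7, and 14 of 20 that were listed had a row. Of these 14, 3 rose and 7 fell, beside 36.2% called over all genes, and 4 did not pass. YAP1, the effector of the Hippo pathway, fell from 237 ± 1.49 to 160.2 ± 16 CPM. IFITM3, an interferon-induced antiviral protein of endosomes, fell with a log2 fold change of -0.71, and HIF1A, the oxygen-regulated transcription factor, rose at 0.35. Of 10 genes for the demethylase KDM1A, its partners and proteins that bind methylated lysine or act with them, 3 rose and 3 fell. The share called was 60%, beside the same 36.2% over all genes. PHF20L1, which binds methylated DNMT1 and protects it from degradation, rose from 73.3 ± 4.02 to 90.1 ± 0.80 CPM. L3MBTL1, which binds methylated lysine, fell from 11.9 ± 0.61 to 8.12 ± 0.31 CPM. KDM1A itself rose from 161 ± 0.94 to 179 ± 1.66 CPM, a log2 fold change of 0.15 (edgeR adjusted p = 0.0252). Leaving out NTC replicate 1 or Set7KD replicate 3 left 1 that rose.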

How the data were processed

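Poly-A RNA of 6 HMEC-1 cultures was sequenced, and titles gave each library's group and number. The authors deposited read counts per gene, unnormalized; per the submitters' processing notes, BWA and bedtools were used with hg19. No source used here says how strand and multiply aligned reads were handled. A row that names no gene took 55.6 to 56.1% of the reads and was left out. The series calls the libraries biological triplicates; if they share a culture, p-values measure only the spread between these libraries. Libraries of a group were not duplicates: chi-square per degree of freedom was 2.98 to 9.85.

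The quasi-likelihood model of edgeR 4.0.16 under R 4.3.3 had group as its only factor, after filterByExpr and TMM scaling (glmQLFit, robust; glmQLFTest). The code was tested on simulated data first, and genes with a Benjamini-Hochberg adjusted p under 0.05 over 18482 genes were called. The standard error is the log2 fold change divided by the root of F. Deviations from group means correlated at 0.3, 0.42 and 0.34 between same-numbered libraries and at -0.36 to -0.039 otherwise (11151 genes). Same-numbered libraries may thus be pairs, a reading from the data alone. The main fit did not use this pairing, and a fit with the replicate block was run beside it. Other alternatives were RLE and upper-quartile normalization, other filters, DESeq2 1.42.0, limma-voom (limma 3.58.1), a minimum fold of 1.2, a threshold of 0.01, and libraries left out. The 10 genes and the lists of related genes were chosen with earlier results of these data known; the text names all 10, up to 3 genes of each list with the smallest p, the 3 nearest genes of each called gene, and list members that did not pass. PPP1CB, ROCK2, MYL12A, CAT, CDKN1B, CDKN2C, CCND2, E2F1 and KDM1A were named after their values were seen. Of the 10, 9 matched GENCODE 29 by Ensembl identifier and UHRF1 by symbol; that annotation is on a later build than the counts, so gene coordinates are not given. Protein sequences were not used here.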

Additional observations from a re-analysis of the deposited data

How the results depend on the processing

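KAT2B, FOXO3 and PPP1R12A kept their direction and call in 18, 17 and 17 of 18 alternatives; the exceptions were FOXO3 and PPP1R12A against a minimum fold of 1.2. With the replicate block, as without it, 1 substrate gene was higher and 2 were lower, so it changed no call among the 10. Against a fold of 1.2, 0 substrate genes were higher and 1 lower by edgeR's glmTreat (at an unadjusted p under 0.05 with no minimum fold 1 and 2, by DESeq2 and by limma-voom 1 and 2), and 11 related-list genes called higher and 19 lower replaced 42 and 40. Then, the count of all genes called higher was 903 and of all genes called lower 1314, instead of 3250 and 3440, and at an adjusted p under 0.01 they were 2103 and 2197. When both libraries numbered 1 were left out, related-list genes called higher were 22 and related-list genes called lower 26, and all genes 1414 and 1562; fewer libraries were then fitted. With 1 library left out, members called lower were 2 or 3 (SIRT1 joining without NTC replicate 3) and called higher 1, related-list genes 32 to 43 higher and 32 to 44 lower, and all genes 2423 to 3214 higher and 2545 to 3303 lower. The log2 fold change of SUV39H1 was -0.051 without NTC replicate 2, -0.0104 without Set7KD replicate 3 and -0.0184 without both libraries numbered 2, and 0.0422 at most; SUV39H1 was called in none of the settings run. The log2 fold change of SETD7 was -2.71 to -2.31 and called lower in all 18. With 3 libraries a group, differences inside the intervals given for the 7 genes not called could not be seen.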

Other observations

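The 7-base words ATGAATC and TGAATCA were also counted in the 3′ UTRs of the 158 related genes that were tested, over all lists of genes that work with the substrates. These lists were chosen with earlier results of these data known. Of the 158 genes, 42 rose and 40 fell, 51.9% in all, beside 36.2% of all genes tested. A word stood in 17 of 39 that fell and had an annotated 3′ UTR (43.6%), in 5 of 41 that rose (12.2%) and in 16 of 75 that were not called (21.3%), beside 19.5% of all 12868 tested genes with a 3′ UTR. The words were picked from these same counts and the shares were not matched for 3′ UTR length, so these shares are values only. Among the 10 substrate genes themselves the share was 2 of 10.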
